A study of Mus musculus with 6 samples.

Results

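Histones are the proteins around which nuclear DNA is wound. Core histones H2A, H2B, H3 and H4 form the nucleosome, and the linker histone H1 binds the DNA between nucleosomes. Most histone genes lie in clusters of many near-identical copies, are transcribed during DNA replication and give messenger RNA that ends in a stem-loop in place of a poly(A) tail. Genes outside the clusters encode variants, such as H2A.Z, H2A.X and macroH2A, and are transcribed throughout the cell cycle, while others are known from the testis or oocyte. Platelets have no nucleus and carry RNA passed on by the megakaryocyte.

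The histone genes described here are those with a symbol of the Hist1h to Hist4h families or a newer histone name, measured by a probe that named exactly 1 gene, with pseudogenes left out. They numbered 49 of 30140 genes on the arrays. By role, 28 were clustered genes (5 of H1, 10 of H2A, 8 of H2B, 3 of H3 and 2 of H4), and 21 lay outside the clusters (3 of H1, 16 of H2A and 2 of H2B). Symbols are the current ones of RefSeq, with the name on the array in brackets where it helps. None of the 49 was identical in its 6 values to any other gene, yet clustered copies are so alike in sequence that probes cannot be assumed to separate them.

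Levels come from 6 Clariom D Mouse arrays, 1 for each group. Mouse platelets and bone marrow megakaryocyte progenitors were each measured with PBS, with CTC41-EVs and with CTC41.5G-EVs (EVs, extracellular vesicles, are membrane particles shed by cells). Since 1 array carries the pooled RNA of all mice in a group, a treatment within a cell type had no replicate. The labels used here do not give the number of mice, the dose, the route and the timing, and what the line names mean. Some pools may have been depleted of leukocytes and erythrocytes with beads before use, and the labels do not tell which. The labels also name both 3 ng and 5 ng of RNA as input and both the mirVana and RNeasy kits for extraction, without saying whether the cell types differed in these, so such a difference cannot be told apart from one between the cell types.

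The progenitor arrays read higher over all probes. Their medians were 4.378 to 4.447 on the log2 scale, against 4.005 to 4.052 on the platelet arrays, and the medians of 1077 olfactory receptor genes were 3.77 to 3.86 against 3.07 to 3.12. Of 11 platelet markers, 11 rose in platelets, and their mean level was 10.07 to 10.55 on the platelet arrays and 5.39 to 5.50 on the progenitor arrays. Of 12 markers of neutrophils and their precursors, 11 fell, with mean levels of 4.89 to 5.16 in platelets and 6.67 to 6.87 in progenitors. Of 6 tested erythroid markers 3 rose, and of 7 B cell markers 4 fell. Of 5 tested monocyte and macrophage markers 1 rose, Lyz2, with means of 9.91 in platelets and 6.97 in progenitors. Of 5 tested T and NK cell markers 1 rose, Gzma. Over all genes tested, 16.2% rose and 25.7% fell. Of 7 stem and progenitor markers, Kit and Myb fell and Slamf1 rose.

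Promoter sequences of 44 of the 49 genes were found in the RefSeq table of GRCm38.p6. The windows below are shown because the genes they precede behaved differently on the arrays, as described in the next paragraphs. H1f2 and H2bc18 had the largest differences between the cell types, H1f1, H1f3 and H1f5 are neighbours of H1f2 in role that stayed below the floor of the test, H2bc3 was lower in platelets, and H2az1 is a variant gene outside the clusters. Each line gives the 120 bases before the RefSeq start of the gene, 5′ to 3′ on the gene's own strand. Capitals mark matches on either strand to the H1 box AAACACA, known from H1 promoters, to CCAAT, to TATAAA, or to the octamer ATTTGCAT, known from H2B promoters.
H1f2 (chr13:23738687-23738806, + strand): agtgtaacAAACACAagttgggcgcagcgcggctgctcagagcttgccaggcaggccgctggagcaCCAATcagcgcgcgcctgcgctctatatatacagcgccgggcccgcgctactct
H1f1 (chr13:23763548-23763667, + strand): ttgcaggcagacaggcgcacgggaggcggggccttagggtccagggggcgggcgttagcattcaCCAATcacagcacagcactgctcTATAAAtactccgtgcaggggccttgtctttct
H1f3 (chr13:23554912-23555031, + strand): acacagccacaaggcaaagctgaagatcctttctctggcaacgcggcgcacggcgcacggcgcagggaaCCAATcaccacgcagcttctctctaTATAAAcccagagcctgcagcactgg
H1f5 (chr13:21780626-21780745, - strand): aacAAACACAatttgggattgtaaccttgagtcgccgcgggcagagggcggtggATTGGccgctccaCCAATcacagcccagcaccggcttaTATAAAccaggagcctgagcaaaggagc
H2bc18 (chr3:96269580-96269699, + strand): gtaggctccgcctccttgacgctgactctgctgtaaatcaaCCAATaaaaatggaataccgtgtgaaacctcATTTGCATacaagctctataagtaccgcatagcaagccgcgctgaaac
H2bc3 (chr13:23746614-23746733, + strand): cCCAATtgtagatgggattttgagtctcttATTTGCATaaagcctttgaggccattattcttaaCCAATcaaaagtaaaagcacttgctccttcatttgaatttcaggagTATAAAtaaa
H2az1 (chr3:137864367-137864486, + strand): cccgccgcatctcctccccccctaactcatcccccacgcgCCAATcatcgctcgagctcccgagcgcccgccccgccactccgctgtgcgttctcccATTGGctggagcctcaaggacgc

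Over the 250 bases before the start, CCAAT was found in 5 of 5 clustered H1, 9 of 9 clustered H2A and 7 of 7 clustered H2B promoters, in 7 of 19 promoters of genes outside the clusters and in 33.85% of all 32851 promoters. The octamer was found in 5 of 7 clustered H2B and 3 of 9 clustered H2A promoters and in 1.6% of all promoters. The H1 box was found in 4 of 5 clustered H1, 1 of 9 clustered H2A and 2 of 7 clustered H2B promoters and in 6.25% of all. TATAAA was found in 3 of 5, 3 of 9 and 4 of 7 of these in that order and in 12.37% of all. H1f2 and H1f5 both held the H1 box within the printed window, and H2bc18 and H2bc3 both held CCAAT and the octamer. These matches are a description of letters and not of binding, and the coordinates are those of the RefSeq table, since the build used for the probes is not given.

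The first comparison asked which histone transcripts differed between platelets and megakaryocyte progenitors over the 3 treatments. H1f2 (Hist1h1c), which encodes linker histone H1.2, was 34.1-fold higher in platelets, and the clustered H2B gene H2bc18 (Hist2h2bb) was 6.27-fold higher. H2az1 (H2afz), the main H2A.Z gene, was 2.77-fold higher. H2bc21 (Hist2h2be), another clustered H2B gene, was also called higher, against progenitor values below the floor of the test. The 7 genes called lower differed by at most 1.75-fold, and 5 of them are H2A variant genes known from the testis. A gene was called at a limma adjusted p of at most 0.05, adjusted over all genes tested, and at least a 1.5-fold difference.

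Of the 49 genes, 30 reached the floor of the test, a mean of 4.23 over the 6 arrays. Of these 30, 4 were called higher in platelets, 7 were called lower and 19 were not called. Over all 18875 genes tested, 16.2% were called higher and 25.7% lower. The median difference was -0.06 over the tested histone genes and -0.26 over all genes tested. The platelet arrays all lay above the progenitor arrays for 9 tested histone genes and all below for 9, where the shares over all genes were 24.2% and 54.2%. The 7 lower calls were lost under each of 3 other scalings of the arrays, while the 4 higher calls held under all 3.

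**Figure D1:**
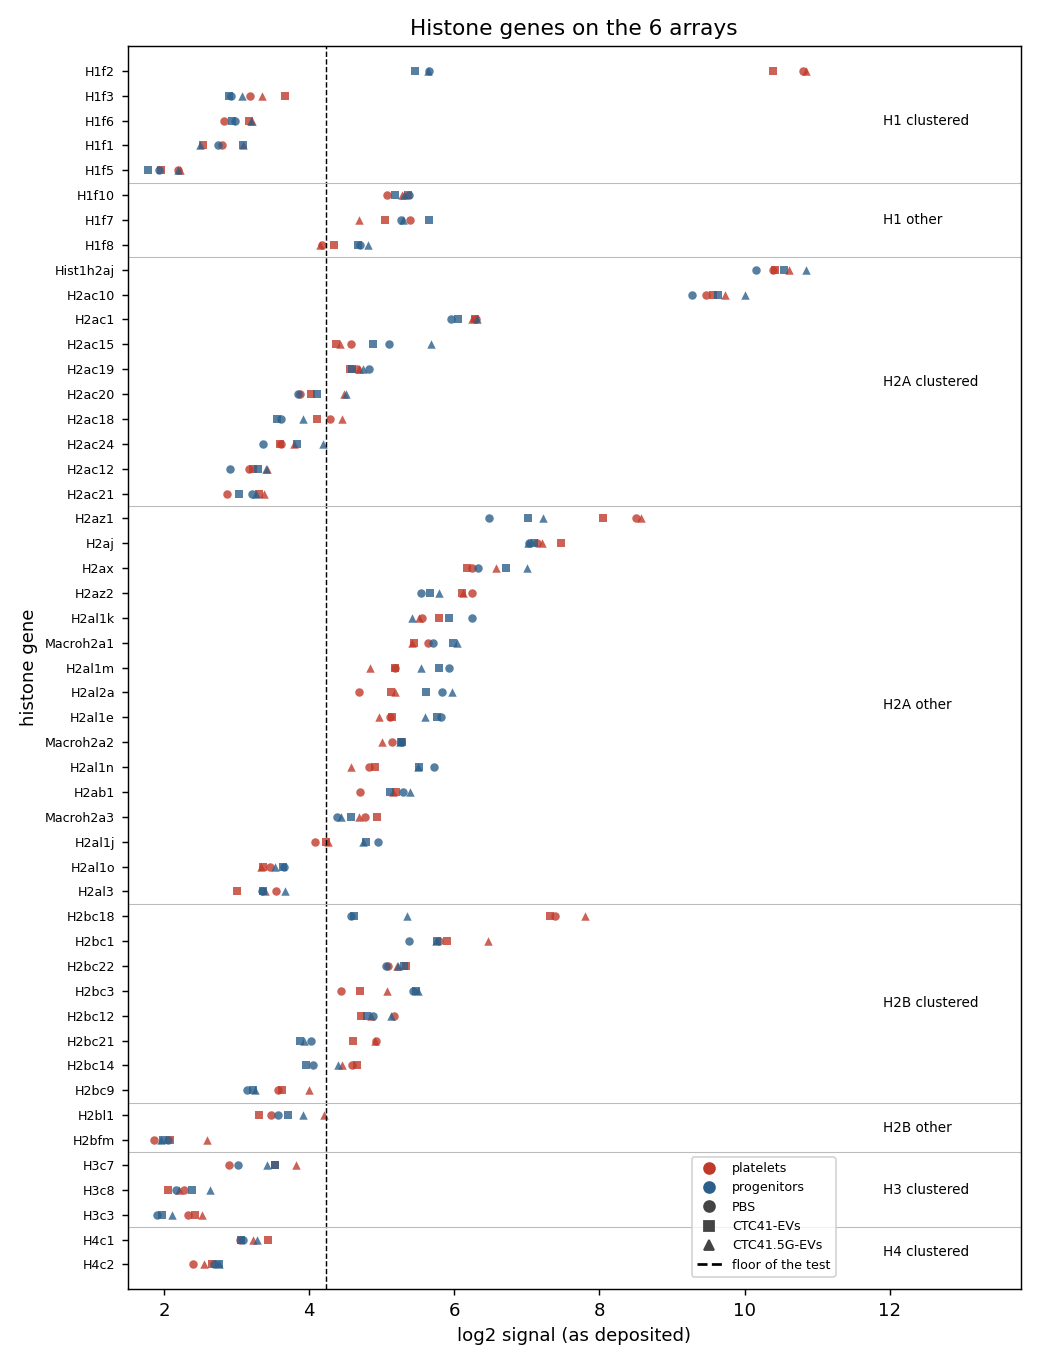
Log2 signal as deposited (x axis) of the 49 histone genes (y axis, grouped by histone and by clustered or other genes) on each of the 6 arrays, with colour for cell type and shape for treatment. The dashed line is the floor of the test, 4.23, and 19 genes had a mean below it; H1f2 shows the widest gap between the cell types.

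Among linker histone genes, H1f2 read 10.81, 10.39 and 10.84 on the platelet arrays with PBS, CTC41-EVs and CTC41.5G-EVs, and 5.65, 5.46 and 5.64 on the progenitor arrays in that order. All platelet arrays lay far above all progenitor arrays. The means were 10.68 ± 0.25 (SD, n = 3) and 5.59 ± 0.11, a difference of 5.09 with SE 0.17 (limma adjusted p = 2.04e-06), and H1f2 ranked 27 of 18875 genes by difference. The other 4 clustered H1 genes were below the floor in both cell types. H1f3 (H1.3) read 3.19, 3.67 and 3.35 in platelets and 2.93, 2.90 and 3.08 in progenitors, without overlap. H1f1 (H1.1), H1f5 (H1.5) and H1f6, the testis linker histone, overlapped, with differences of 0.03, 0.15 and 0.03 and no test.

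The 3 H1 genes outside the clusters were tested and not called. H1f10 (H1fx), a widely expressed linker histone, differed by -0.05 (SE 0.11). H1f7, known from spermatids, differed by -0.36 (SE 0.15). H1f8 (H1foo), the oocyte linker histone, read 4.17, 4.34 and 4.15 in platelets and 4.70, 4.68 and 4.81 in progenitors, a difference of -0.51 (SE 0.10, limma adjusted p = 0.00283) that was under 1.5-fold. The 2 H1 genes named last depended on single treatments. Without either PBS array H1f7 was called at -0.61, and without either CTC41-EVs array H1f8 was called at -0.59.

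Among H2B genes, 7 of 8 clustered members were tested, and 2 rose, 1 fell as deposited and 4 were not called. H2bc18 read 7.38, 7.31 and 7.80 in platelets and 4.58, 4.62 and 5.35 in progenitors. Platelets were higher throughout, and in both cell types the CTC41.5G-EVs array was the highest. The means were 7.497 ± 0.261 and 4.85 ± 0.44 (SD, n = 3), a difference of 2.65 with SE 0.12 (limma adjusted p = 4.22e-06). H2bc21 read 4.93, 4.60 and 4.90 in platelets and 4.02, 3.88 and 3.94 in progenitors, where it lay below the floor. Its difference was 0.87 (SE 0.10, limma adjusted p = 0.000224). Measured from the floor it was 0.584, just short of the 1.5-fold limit, so the call rests on progenitor values below the floor.

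H2bc3 (Hist1h2bb) went the other way, at 4.43, 4.70 and 5.08 in platelets and 5.43, 5.47 and 5.50 in progenitors. Its difference was -0.73 (SE 0.12, limma adjusted p = 0.0012). The clustered H2B genes H2bc14 and H2bc1, the latter the testis H2B, differed by 0.43 and 0.42 without overlap and did not reach 1.5-fold. H2bc22 and H2bc12 differed by 0.014 and -0.027 and overlapped. Scaled by quantiles, by median or on olfactory receptor genes, H2bc14 and H2bc1 were called higher and H2bc3 was not called. Without either CTC41.5G-EVs array H2bc14 was called higher too. H2bc9 was below the floor, and so were both H2B genes outside the clusters, H2bfm and H2bl1.

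Among clustered H2A genes, 5 of 10 were tested, 0 rose and 1 fell, and at an unadjusted p under 0.05 the same 1 passed. Hist1h2aj and H2ac10 (Hist1h2af) both encode replication-dependent H2A. H2ac10 read 9.47, 9.57 and 9.74 in platelets and 9.28, 9.64 and 10.0001 in progenitors, so that the cell types overlapped. Its difference was -0.049 (SE 0.21), and that of Hist1h2aj was -0.045 (SE 0.23), from 10.39, 10.42 and 10.61 in platelets and 10.16, 10.54 and 10.85 in progenitors. Both became 0.67 and were called higher with arrays centred on olfactory receptor genes.

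H2ac15 (Hist1h2ak) was the clustered H2A gene called lower as deposited. It read 4.58, 4.38 and 4.43 in platelets and 5.10, 4.88 and 5.67 in progenitors, a difference of -0.76 (SE 0.15, limma adjusted p = 0.00308). The progenitor CTC41.5G-EVs array was the highest of the 6, and without either CTC41.5G-EVs array the difference was -0.52 and was not called. H2ac1, the testis H2A, and H2ac19 differed by 0.17 and -0.08. The 3 H3 genes and 2 H4 genes were all below the floor, with means over the 6 arrays between 2.21 and 3.37, and were not tested.

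**Figure D2:**
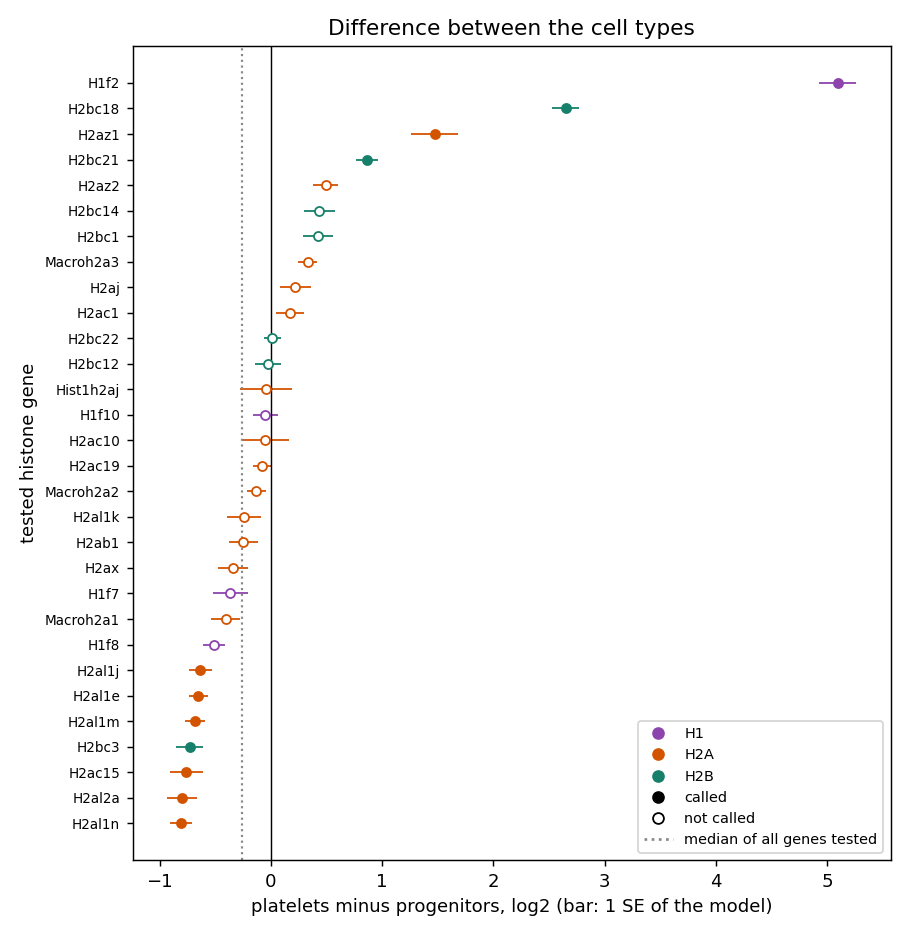
Difference between platelets and progenitors in log2 (x axis) for the 30 tested histone genes (y axis), with 1 SE of the model as the bar, filled points for called genes and the median of all genes tested, -0.26, as the dotted line. H1f2 at 5.09 and H2bc18 at 2.65 stand apart to the right, and the 7 lower calls lie between -0.81 and -0.63.

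Among H2A variant genes of body cells, H2az1 read 8.51, 8.06 and 8.57 in platelets and 6.48, 7.01 and 7.23 in progenitors. Platelets were higher throughout, with means of 8.38 ± 0.28 and 6.91 ± 0.38 (SD, n = 3) and a difference of 1.47 with SE 0.21 (limma adjusted p = 0.000695). H2az2 (H2afv), the second H2A.Z gene, read 6.25, 6.11 and 6.12 in platelets and 5.54, 5.67 and 5.79 in progenitors. Its difference of 0.49 (SE 0.11, limma adjusted p = 0.00634) was under 1.5-fold as deposited and was called under all 3 other scalings, at 0.64 to 1.21.

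H2ax (H2afx), whose protein is phosphorylated at DNA breaks, read 6.25, 6.18 and 6.58 in platelets and 6.33, 6.71 and 6.998 in progenitors. The cell types overlapped, and the difference was -0.34 (SE 0.14). H2aj (H2afj), an H2A variant, differed by 0.22 (SE 0.14). It was called higher with arrays scaled to the same median (0.60) or centred on olfactory receptor genes (0.94), and not with quantiles (0.21). The macroH2A genes Macroh2a1 and Macroh2a2 (H2afy and H2afy2), whose products carry a large extra domain, differed by -0.41 (SE 0.13) and -0.13 (SE 0.09). Macroh2a3 (H2afy3), a further gene of that name, differed by 0.33 (SE 0.08), and was called higher under the 3 other scalings.

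The remaining H2A variant genes, 9 members named H2al or H2ab, are known from spermatids, and 5 of the 7 tested were called lower in platelets. These 5 were H2al1n (-0.81, SE 0.10), H2al2a (-0.80, SE 0.13), H2al1m (-0.68, SE 0.09), H2al1e (-0.65, SE 0.09) and H2al1j (-0.63, SE 0.10). H2al1k and H2ab1 differed by -0.24 and -0.25 and were not called. Limma adjusted p of the 5 lay between 0.000292 and 0.00134. Without either PBS array H2al1j, at -0.52, was not called. Olfactory receptor genes, which neither cell type is known to use, were also lower on the platelet arrays, as given above. With arrays centred on them the 5 differences lay between -0.09 and 0.085. Scaled by quantiles or to the same median, the 5 differences stayed negative, between -0.55 and -0.26. None was called under any of these scalings, and the cause was not tested.

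Many clustered histone genes were measured only by probes that name several of them, and these lie outside the 49 genes. There were 48 probes that name several genes with a histone gene among them, some of these for H2A variants outside the clusters. All 48 were entered beside the genes in a fit added after the data were seen. Of 44 tested, 15 were called higher in platelets and 9 lower, and 2 pairs of the lower probes carried the same values. All 15 higher calls held under the 3 other scalings, and of the 9 lower calls 0 to 4 did. As above, 16.2% of all genes were called higher and 25.7% lower. For H2B, 8 of 9 tested probes rose and 0 fell, and for H4, 4 of 11 rose and 1 fell. For H2A, 2 of 17 rose and 6 fell, and for H3, 0 of 6 rose and 2 fell. All 6 lower H2A probes name variant genes outside the clusters, of the H2al1, H2al2 and H2afb families. The 2 higher H2A probes name clustered genes, Hist2h2aa1 (0.61) and Hist1h2ac (3.12) first, and no H2A probe of clustered genes was called lower. Of the 6 lower H2A calls 0 to 3 held under the other scalings, and of the 2 lower H3 calls 0 did. The probe that names Hist1h4i first and 13 H4 genes in all read 11.42, 11.39 and 11.75 in platelets and 5.97, 6.41 and 5.82 in progenitors, a difference of 5.45 (SE 0.23). Those that name Hist1h4n and Hist1h4m first, with the same 13 genes, differed by 4.84 (SE 0.30) and 4.18 (SE 0.16). The Hist1h4n probe read 3.55, 4.59 and 5.23 in progenitors, where the PBS array lay below the floor. The Hist1h4m probe read 3.10, 3.54 and 3.79 in progenitors, all below the floor, and its difference measured from the floor was 3.43. The probe of Hist1h2bc, Hist1h2be and Hist1h2bg that names Hist1h2bc first differed by 3.97 (SE 0.17), and the H2A probe that names Hist1h2ac first by 3.12 (SE 0.17). The other H4 probes ranged down to -1.07 (SE 0.21), for the probe that names Hist2h4 first, so H4 probes with the same gene names did not move as one.

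**Figure D3:**
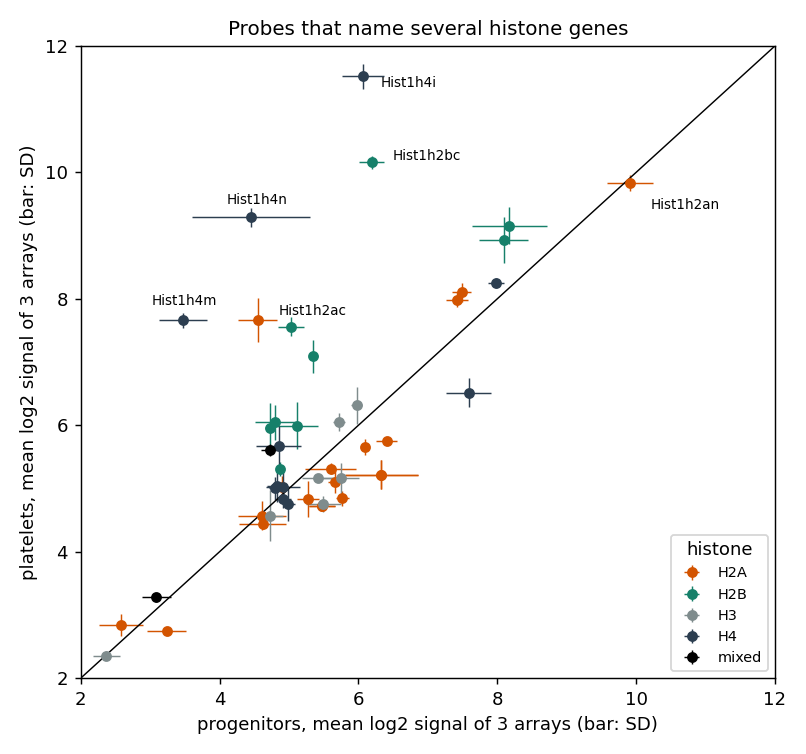
Mean log2 signal over 3 arrays in platelets (y axis) against progenitors (x axis) of the 48 probes that name several histone genes, coloured by histone, with the SD as bars and the line of equal signal. The probes that name Hist1h4i, Hist1h4n, Hist1h4m, Hist1h2bc and Hist1h2ac first lie far above the line, while the probe that names Hist1h2an first, at 9.83 in platelets and 9.91 in progenitors, lies on it.

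Genes that make, carry or follow histones were given by 6 lists. Of 3 histone genes outside the rule, H3f3c, a gene of the H3.3 family, rose by 2.48 (SE 0.16), the spermatid histone gene Hils1 fell by 0.70 (SE 0.09), and Cenpa, the centromere H3, was not called. Of 15 tested genes of histone mRNA transcription, 3′ processing and decay, 2 rose, the RNA tailing enzyme Tut7 (1.05, SE 0.11) and the stem-loop exonuclease Eri1 (0.66, SE 0.09), and 0 fell. Slbp, the stem-loop binding protein, differed by 0.09 (SE 0.10). Of 16 histone chaperone and importer genes, 4 rose and 4 fell, led by Nap1l1 (3.06, SE 0.13), Npm1 (1.22, SE 0.20) and Ubn1 (1.05, SE 0.09), and by Asf1b (-0.85, SE 0.09), Cabin1 (-0.65, SE 0.08) and Chaf1b (-0.65, SE 0.09). Medians were -0.08 for mRNA metabolism and 0.18 for chaperones.

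Of 18 tested genes of S phase and DNA replication, 0 rose and 8 fell, with a median of -0.48. Among them Uhrf1, Tk1 and Cdk2 differed by -0.84 (SE 0.10), -0.77 (SE 0.12) and -0.70 (SE 0.09). Of 13 mitosis genes 3 rose, Mki67 (1.52, SE 0.16), Ube2c (1.21, SE 0.12) and Nusap1 (0.97, SE 0.12), and 4 fell, led by Cdc20 (-0.94, SE 0.08), Plk1 (-0.85, SE 0.10) and Aurkb (-0.65, SE 0.08). Of 21 genes for modifiers of histone tails 5 rose and 1 fell, among them Ezh2 (1.95, SE 0.10) and Eed (1.33, SE 0.10) of the Polycomb complex and the acetyltransferase gene Crebbp (1.14, SE 0.12), while Kat2a, another acetyltransferase gene, fell by 0.63. The falls in these lists were scaling-dependent: with arrays scaled to the same median 0 genes of the 6 lists were called lower. The histone results and the markers of platelets, neutrophils and erythroid cells moved with the same arrays, and their part in the results was not tested. In bulk RNA, fewer cells of a type and less RNA per cell cannot be told apart.

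The next comparison asked whether histone transcripts shifted with EVs in both cell types together. In each of the 3 contrasts limma called 0 of the 30 tested histone genes and 0% of all genes tested. At an unadjusted p under 0.05 there were 1, 5 and 2 histone genes and 577, 1171 and 1157 of all 18875 genes. H2bc18 differed by 0.59 (SE 0.15) between CTC41.5G-EVs and PBS over both cell types (limma adjusted p = 0.584) and by 0.61 between the EV types (limma adjusted p = 0.666). H2bc1 and H2ax differed by 0.53 (SE 0.16) and 0.50 (SE 0.17) between CTC41.5G-EVs and PBS, with adjusted p of 0.739 and 0.768. H2bc3 differed by 0.36 (SE 0.15) there. H2al1m, also among the 5, went the other way, at -0.36 (SE 0.11, limma adjusted p = 0.73). Between the EV types H2al1m differed by -0.30 (limma adjusted p = 0.768).

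Within a cell type each EV comparison set 1 array against 1 array, with no test. Genes were counted where the arrays differed by at least 1.5-fold and the mean over that cell type's 3 arrays was at least 5.07 (the 75th percentile of the probes), which 17 histone genes did in platelets and 22 in progenitors. The comparisons of a cell type share arrays and are not independent.

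In progenitors with CTC41.5G-EVs against PBS, 4 of 22 histone genes were higher and 1 was lower, where the shares over all genes were 5.47% and 0.746%. The 4 were H2az1 (from 6.48 to 7.23, a difference of 0.74), H2ac10 (9.2811 to 10.0001, 0.72), Hist1h2aj (10.16 to 10.85, 0.69) and H2ax (6.327 to 6.998, 0.67). The progenitor CTC41-EVs array lay between the others for all 4 genes, at 7.01, 9.64, 10.54 and 6.71. H2ac10 and Hist1h2aj are both clustered H2A genes, whose probes may not give separate signals. Under quantile normalization 1 histone gene passed the fold. That count is given without the share over all genes and is not read as a result about histone genes. The gene that was lower, H2al1k, went from 6.24 to 5.42, a difference of -0.82. The median over the 22 genes was 0.12, and over all genes 0.13. H2bc18, at 4.58 and 5.35, differed by 0.77 but lay below the floor. On progenitor arrays the mean level of the S phase list was 4.52 with PBS, 4.61 with CTC41-EVs and 4.72 with CTC41.5G-EVs. Every other list, markers included, also had a higher mean there with CTC41.5G-EVs than with PBS. The mean of chromatin modifiers went from 4.92 to 5.11, and that of neutrophil markers from 6.67 to 6.87. The part of these levels in the result was not tested.

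For CTC41-EVs against PBS in progenitors, 0 of 22 histone genes passed 1.5-fold, where 3.09% of all genes were higher and 0.101% lower. The highest value was that of H2az1, 0.53. Between the EV types in progenitors, H2ac15 was higher with CTC41.5G-EVs, at 5.67 against 4.88 (0.79), the 1 of 22 histone genes past the fold, and 0 were lower. Of all genes 0.608% were higher and 0.783% lower.

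In platelets, H2bc1 was the 1 of 17 histone genes higher with CTC41.5G-EVs than with PBS, at 6.47 against 5.79 (0.68), and 0 were lower, where 0.643% of all genes were higher and 1.31% lower. Below the 5.07 floor in platelets, H1f7 went from 5.39 to 4.68 (-0.71), at a mean of 5.04, and H2bc3 from 4.43 to 5.08 (0.64). With CTC41-EVs against PBS 0 of 17 passed in either direction, beside 0.449% of all genes higher and 2.34% lower, and between the EV types 0 of 17 passed, beside 2.79% and 0.885%. H1f2 differed by -0.42, 0.04 and 0.46 in these comparisons, in the order CTC41-EVs against PBS, CTC41.5G-EVs against PBS and CTC41.5G-EVs against CTC41-EVs. H2az1 differed by -0.45, 0.06 and 0.51. Both genes read lowest on the platelet CTC41-EVs array among the platelet arrays.

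**Figure D4:**
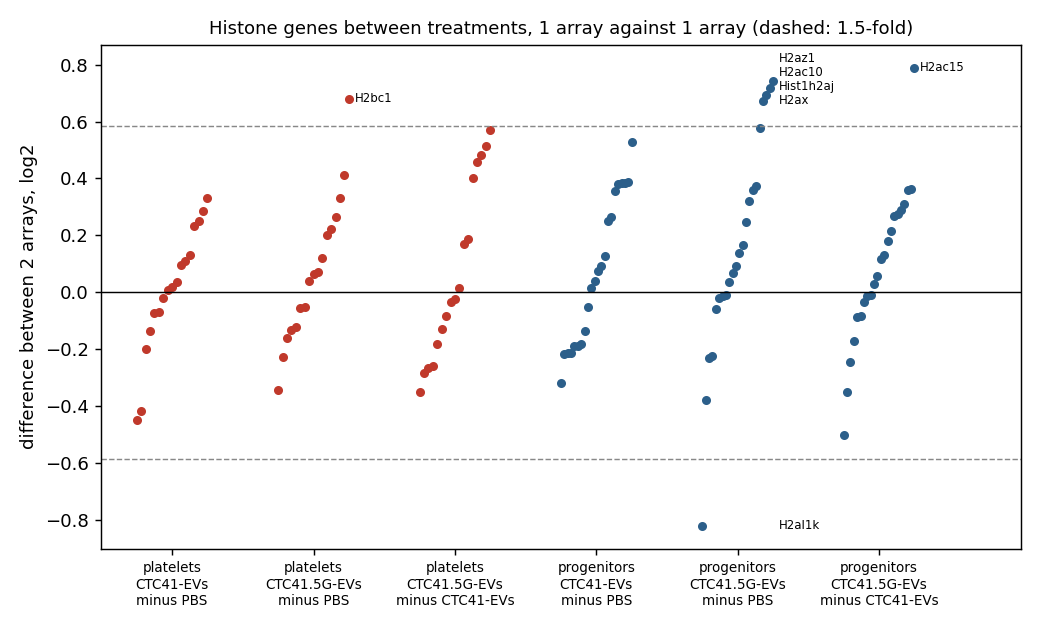
Difference between 2 arrays in log2 (y axis) for each histone gene past the floor, by cell type and comparison (x axis), with dashed lines at 1.5-fold and names beside the genes past them. Most genes lie within the lines, and the progenitor comparison of CTC41.5G-EVs with PBS has the most past them, 4 above and 1 below.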

How the data were processed

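The deposited values are log2 signals per probe, used as the authors gave them. The submitters' processing notes list Affymetrix Expression Console 1.4.1.46, whereas the series text mentions MAS5, and this leaves unsettled how arrays were scaled to each other. Arrays carry no read depth, and their number limits the precision.

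Of 72688 probes, 30604 named 1 gene and 2146 several. Symbols were updated by Entrez identifier with the RefSeq table of GRCm38.p6, 45 of the 49 histone genes among them. Of several probes of a gene the one with the highest mean was used. The members and lists were chosen with earlier results of these data known.

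limma 3.58.1 in R 4.3.3 was fitted over all genes with a mean at or above the 50th percentile of all probes, with additive terms for cell type and treatment, 2 residual degrees of freedom and an intensity trend. The SD of a cell type is over 3 arrays that differ in treatment, and a p-value measures only the spread between these pooled arrays. On simulated data with 18875 genes the fit recovered 95% of genes changed by 1 and 100% of those changed by 2 on the log2 scale. There were 4 false calls. The simulated arrays had no offset between the cell types, so the simulation does not cover the scaling of the arrays.

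Members were named by a written rule. In each role it took the 3 called genes with the largest difference each way, every tested gene outside the clusters and the gene with the highest mean, and for EVs up to 5 past the fold each way. Of each related list it took the 3 called genes with the largest difference each way. Other members were named after their values were seen. Alternatives were 3 other scalings (quantiles, the same median, centring on olfactory receptor genes), other floors, cell type alone in the model, no variance trend, the mean of the probes, another fold and each array left out.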

Additional observations from a re-analysis of the deposited data

Results flagged for a closer look

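Among histone genes measured alone with a mean of at least 5.07 in both cell types, none moved past 1.5-fold in one and oppositely in the other. Genes below that floor were not counted, such as H1f7, which was below it in platelets. Between CTC41.5G-EVs and PBS, H1f7 differed by -0.71 in platelets and 0.04 in progenitors. Groups of 1 or 3 arrays are too small for a search for a far sample. Probes that name several histone genes, which no treatment comparison above used, had signals above the PBS array by at least 1.5-fold in progenitors, counting probes with a mean there of at least 5.07. With CTC41.5G-EVs the probe that names Hist1h2bl first was higher by 1.07 on the log2 scale, Hist1h2ai by 0.72, Hist1h2bn by 0.67, Hist1h2an by 0.66 and Hist1h2bj by 0.62. The probes of H2al2b and H2al2c, a pair with the same values on all arrays, were higher by 1.04 with CTC41.5G-EVs and by 0.66 with CTC41-EVs. Each value is 1 array against 1 array and was not tested. In platelets no such probe was higher than with PBS by that fold. The probe that names Hist1h2ac first was lower with CTC41-EVs than with PBS, by -0.65. Between the EV types in platelets, the probes that name Hist1h2bf, Hist1h2bj, Hist1h2bn and Hist1h4f first were higher with CTC41.5G-EVs, by 0.77, 0.73, 0.69 and 0.62. Between the EV types in progenitors, Hist1h2bl was higher by 0.61 and Hist1h4i lower, at -0.59. Below the 5.07 floor in progenitors, and so not counted, the probe that names Hist1h4n first read 3.55 with PBS and 5.23 with CTC41.5G-EVs.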

How the results depend on the processing

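The model matches a platelet array to a progenitor array through its treatment term, and with cell type alone in the model the calls were still 4 higher and 7 lower. The labels give no replicate numbers that could pair arrays further. The 4 higher calls held under every setting that tested them, and at the 75th percentile floor H2bc21 was not tested. Histone genes called higher numbered 8 under quantile normalization, 17 when olfactory receptor genes were used for centring and 9 after scaling to 1 median, and 0 were called lower in each, where the median over all genes moved from -0.26 to 0.05, 0.46 and 0.11. Of all genes, 21.9%, 40.4% and 24.8% were then higher and 12.1%, 5.46% and 10.1% lower. Leaving out an array gave 4 to 5 higher and 6 to 8 lower calls, and entering the probes that name several genes gave 4 and 7. Of the members named by the rule, signs turned under quantile normalization for H1f10 (0.26), H2ab1 (0.077), H2ac10 (0.24), Hist1h2aj (0.52) and Macroh2a2 (0.18). With the same median they turned for H1f10 (0.33), H1f7 (0.013), H2ab1 (0.13), H2ac10 (0.33), H2al1k (0.14), H2ax (0.035), Hist1h2aj (0.33) and Macroh2a2 (0.25). Centred on olfactory receptor genes they turned for H1f10 (0.67), H1f7 (0.355), H1f8 (0.21), H2ab1 (0.47), H2ac10 (0.67), H2al1e (0.066), H2al1j (0.085), H2al1k (0.48), H2al1m (0.036), H2ax (0.38), Hist1h2aj (0.67), Macroh2a1 (0.31) and Macroh2a2 (0.59). H2ac19 and H2bc12, named outside the rule, turned under all 3 as well, at 0.28 and 0.31, 0.30 and 0.35, and 0.64 and 0.69 in that order, and were called with the last. With an array left out, H1f10 ranged from -0.16 to 0.074 (without PBS), H2ac10 from -0.17 to 0.058 and Hist1h2aj from -0.18 to 0.053 (both without CTC41.5G-EVs); the cause was not tested.

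In the related lists, lower calls were 0 for histone genes outside the rule, chaperones, mitosis and chromatin modifiers under all 3 scalings, and 1, 0 and 0 for S phase genes with quantiles, olfactory receptor genes and the same median. In that order of scalings, higher calls were 8, 9 and 8 for chaperones and 1, 3 and 1 for S phase; with olfactory receptor genes they were 9 for mRNA metabolism, 5 for mitosis and 10 for chromatin modifiers. At the 75th percentile floor, which tests fewer genes, 1 mRNA metabolism gene was higher, and 0 genes outside the rule, 2 chaperone, 4 S phase and 1 mitosis genes were lower. Without a floor 1 S phase gene was higher, and with the mean of the probes 2 chromatin modifiers were lower. With an array left out, mRNA metabolism had 1 to 2 higher calls, S phase 5 to 8 lower and chromatin modifiers 0 to 2 lower.

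Past the fold in platelets, CTC41.5G-EVs against PBS had 2, 3 and 2 histone genes under those scalings, 3 at the 50th percentile floor and 0 at 2-fold, and CTC41.5G-EVs against CTC41-EVs had 1 with the same median. In progenitors, CTC41.5G-EVs against PBS had 1 with quantiles and 0 at 2-fold, and CTC41.5G-EVs against CTC41-EVs had 0 with the same median, 2 at the 50th percentile floor and 0 at 2-fold. No share over all genes is given beside these counts, so they are not read as a result about histone genes. No depth can be given, and 1 array per group limits every EV value.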
